A study of Mus musculus with 36 samples.

Results

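Messenger RNA levels in the brain were compared between mice given bacterial lipopolysaccharide (LPS) followed by genipin and mock mice, to describe which transcripts stayed away from the mock level when genipin had been given. The comparison used 6 of the 36 one-colour arrays of a study of brain, heart, kidney and liver, namely the brain arrays LPS_Genipin_Brain1 to 3 and Mock_Brain1 to 3, and the 3 brain arrays of mice given LPS alone were kept in the fit and are shown beside them. The animals were female transgenic FVB mice, 6 to 8 weeks old, that were imaged for luciferase 4 h after treatment, and the promoter that drives the transgene is not named by the labels. All 3 groups carried the transgene. Mock mice received no treatment, LPS mice received 4 mg/kg LPS into the peritoneal cavity, and LPS+genipin mice received the same LPS and then genipin 10 min later. The series lists genipin at 1, 10 and 100 mg/kg among 25 mice in 5 groups of 5, and the labels do not say which dose the arrayed mice had. None of the listed groups received genipin without LPS. The labels do not state that the 3 arrays of a group are 3 different mice, so the p-values speak only of the spread among these samples, and that spread may be technical.

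LPS is the outer-membrane lipid of Gram-negative bacteria, which Cd14 and Lbp hand to the receptor Tlr4. The receptor's adaptors release NF-kB and induce type I interferon, and cytokines made outside the brain reach brain endothelium, choroid plexus and perivascular cells, which relay the signal inward. Adrenal glucocorticoids rise in the same hours and act on the same cells. Genipin is an iridoid from gardenia fruit used as a cross-linking agent and as an anti-inflammatory compound.

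Of 18183 probes, 14503 had values in the brain arrays, and they gave 10224 named genes. Levels are given below as log2 of the deposited intensity, and differences are log2 LPS+genipin minus mock unless another pair is named. Median intensity was 2096 to 2098 on all 9 arrays. Correlations between arrays of a group, over genes, were 0.997 to 0.998 in mock, 0.989 to 0.992 in LPS and 0.993 to 0.995 in LPS+genipin. The lowest 5% of intensities were raised to a floor of 263, a log2 level of 8.04, which left 301 genes at the floor on all mock arrays and 260 on all LPS+genipin arrays. Where a group lay wholly at the floor, or wholly at a saturated intensity (60000 or more), a bound ("at least") or no fold is given. The number of arrays limits the precision.

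The tissue label was checked on markers of brain cells. Neuronal markers had a median of 15.2 and astrocyte markers one of 14.2 on the mock arrays, against an all-gene median of 11.3. Beside these, transcripts of 2 kinds differed between the groups. The first was skeletal muscle mRNA, which was high in mock brains and low in both other groups. The median level of the 46 measured muscle genes was 10.4 to 10.5 on the mock arrays, 8.94 to 9.03 on the LPS arrays and 8.99 to 9.12 on the LPS+genipin arrays. The second was mRNA typical of particular brain regions. Cerebellar markers had array medians of 14.8 to 14.9 in mock, 15.4 to 15.6 in LPS and 14.3 to 14.4 in LPS+genipin, while thalamic and midbrain markers had medians of 11.3 in mock, 11.7 to 11.9 in LPS and 13.3 to 13.4 in LPS+genipin. Choroid plexus markers had medians of 9.44 to 9.48, 9.37 to 9.51 and 10.8 to 11.1 in the same order. The middle gene of a list can change between groups, so a median level can shift more than its members do. Median member differences between LPS+genipin and mock were 0.46 for thalamus and midbrain, 0.81 for choroid plexus and -0.72 for muscle. In bulk tissue, fewer cells of a type and less RNA per cell cannot be told apart.

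In LPS+genipin against mock, 1474 of 10224 genes (14.4%) passed an adjusted p of 0.05 in limma, 900 of them higher (8.80% of genes) and 574 lower (5.61%). The total was 852 without the first mock array, 952 without the second, 864 without the third and 917 without the second LPS+genipin array. Without these same arrays the lower count was 277, 336, 279 and 330, and 378 without the first LPS+genipin array. The higher count was 575, 585 and 587 without the first mock array, the third mock array and the second LPS+genipin array. At least 2-fold differences were seen in 137 genes (1.34%), 109 higher (1.07%) and 28 lower (0.274%), against 2.38% in LPS alone (1.60% higher and 0.773% lower) and 1.63% in LPS+genipin against LPS (0.665% higher and 0.968% lower). For comparison, 3460 genes (33.8%) passed in LPS against mock, 1675 higher (16.4%) and 1785 lower (17.5%) (2261 in all without the third mock array), and 3085 (30.2%) in LPS+genipin against LPS, 1666 higher (16.3%) and 1419 lower (13.9%). With genes whose mean level was under the 25th percentile left out (below, the low genes), 934 passed against mock, 84 of them at least 2-fold. These comparisons share arrays, so their values are set side by side without a correlation or overlap. Of the 109 genes at least 2-fold above mock, 31 belonged to a pathway list, 12 to a list of cell type or region markers other than muscle, 1 to the muscle list and 68 to none. Of the 28 at least 2-fold below mock, 18 were muscle genes.

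**Figure D1:**
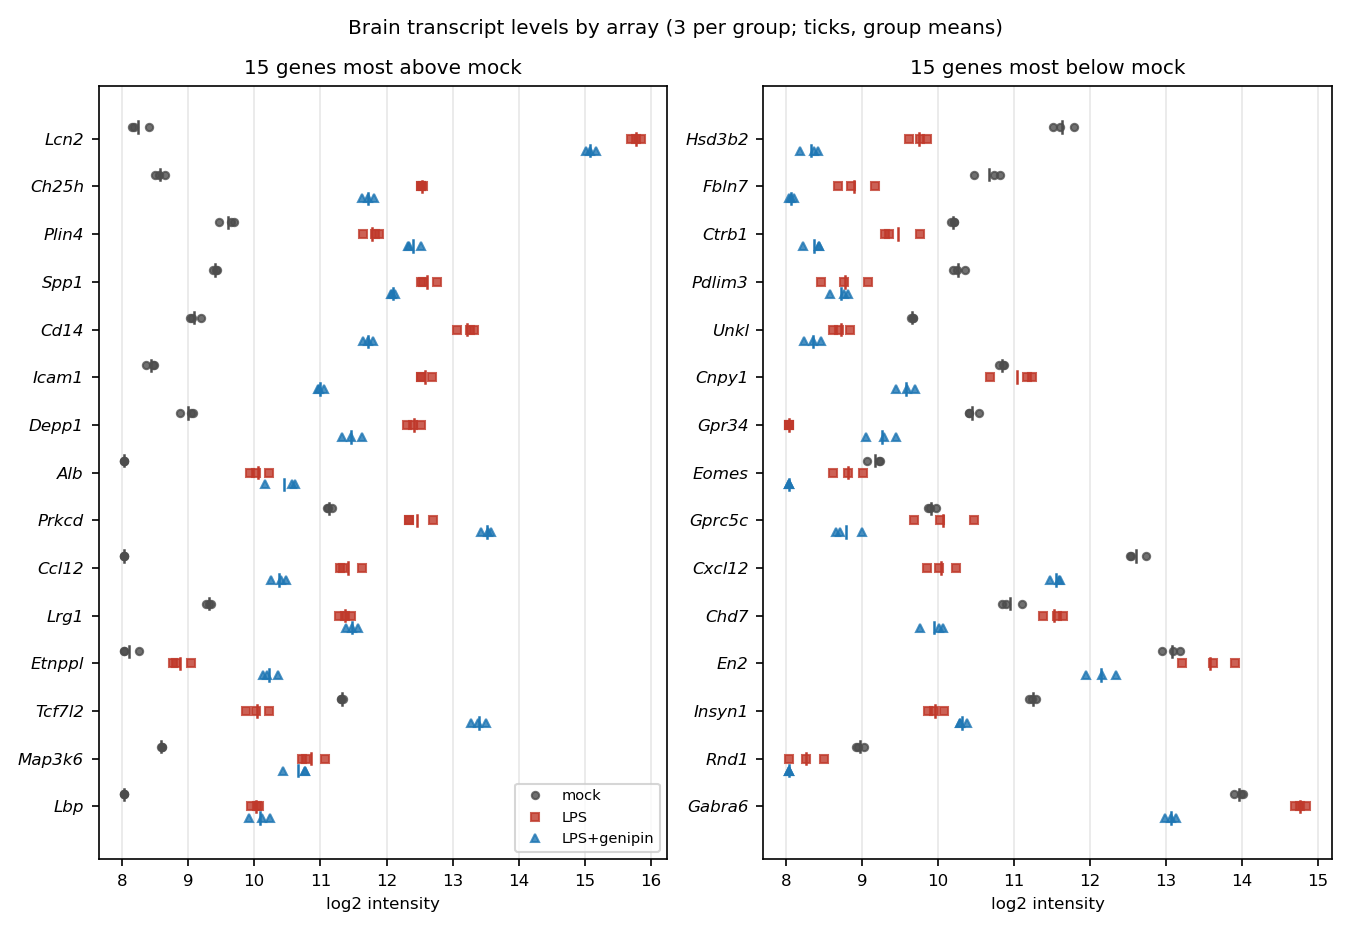
Log2 level of the 15 genes most above mock (left panel) and the 15 most below mock (right panel), muscle list left out, on each of the 3 mock, 3 LPS and 3 LPS+genipin arrays, with ticks at the group means. Lcn2 lies between 15.01 and 15.17 on the LPS+genipin arrays against 8.15 to 8.42 in mock, and Tcf7l2 lies above mock in LPS+genipin but below it in LPS.

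The largest difference belonged to Lcn2, which encodes lipocalin 2, a secreted protein that binds bacterial siderophores and is a marker of brain inflammation. Its levels were 8.15, 8.42 and 8.18 on the mock arrays, 15.77, 15.69 and 15.85 on the LPS arrays and 15.01, 15.17 and 15.07 on the LPS+genipin arrays. All LPS+genipin arrays lay far above mock and slightly below LPS. The difference from mock was 6.83 ± 0.08 (SE, adjusted p = 7.91e-09), a 114-fold higher level, against 7.53 in LPS alone, and the LPS+genipin minus LPS difference was -0.69 (adjusted p = 0.000833). Genes named here as the largest were chosen among those whose mock and LPS+genipin arrays do not overlap, which held for 41.3% of all genes, so their separation is a description. The promoter of Lcn2 is shown with that of Map3k6, a stress-kinase gene, because they head the genes at least 2-fold above mock whose start region carries the letters ACANNNTGT of a glucocorticoid response element (GRE). Both are RefSeq windows of the GRCm38.p6 assembly, from 250 bases before to 50 after the gene start, written 5′ to 3′ on the gene's strand with the match in capitals. The Lcn2 window is chr2:32387690-32387989 on the minus strand, with the match starting at -152 from the gene start. The Map3k6 window is chr4:133240568-133240867 on the plus strand, with the match at -179.
Lcn2: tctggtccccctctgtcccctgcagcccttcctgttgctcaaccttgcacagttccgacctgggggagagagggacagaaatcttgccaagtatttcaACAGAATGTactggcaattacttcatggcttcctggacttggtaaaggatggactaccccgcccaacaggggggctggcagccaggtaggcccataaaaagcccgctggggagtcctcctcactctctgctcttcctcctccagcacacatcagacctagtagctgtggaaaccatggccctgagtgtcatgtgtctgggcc
Map3k6: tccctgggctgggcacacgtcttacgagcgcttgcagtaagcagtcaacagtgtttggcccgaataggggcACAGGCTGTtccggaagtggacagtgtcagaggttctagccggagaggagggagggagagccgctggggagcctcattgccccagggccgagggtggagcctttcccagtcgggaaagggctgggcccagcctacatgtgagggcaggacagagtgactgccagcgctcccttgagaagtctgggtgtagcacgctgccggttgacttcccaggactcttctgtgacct

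Map3k6 levels were 8.61, 8.58 and 8.60 in mock, 11.06, 10.72 and 10.78 in LPS and 10.77, 10.43 and 10.77 in LPS+genipin, a difference of 2.06 ± 0.12 (SE, adjusted p = 2.12e-05) from mock. LPS alone gave 2.26, and LPS+genipin minus LPS was -0.20 (adjusted p = 0.233). Of the 109 genes at least 2-fold above mock, 91 had a RefSeq promoter window. The GRE letters, read on both strands, were in 15 of these 91 genes (16.5%). They were in 5.13% of 8260 measured genes with a window and in 7.90% of all 27025 genes with a window. A match is a description of letters and does not show that a receptor binds there.

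Acute-phase and secreted defence genes, which the liver releases into blood in inflammation and which brain vessels and astrocytes can also make, had a median difference of 1.24, against -0.00 for all genes, and Lcn2 is one of them. Of 12 measured, 11 rose and 1 did not pass, and in LPS alone all 12 passed with a median of 1.59. Lrg1, a glycoprotein that acts on vessels, had levels of 9.27, 9.35 and 9.31 in mock, 11.28, 11.36 and 11.47 in LPS and 11.48, 11.39 and 11.57 in LPS+genipin. Its difference from mock was 2.17 ± 0.06 (SE, adjusted p = 6.76e-07; 2.06 in LPS), and LPS+genipin overlapped LPS (difference 0.11, adjusted p = 0.244). Genes of the calprotectin pair S100a8 and S100a9, made by neutrophils, rose by 1.55 and 1.50, beside 1.42 and 1.27 in LPS alone. Cp (ceruloplasmin, a copper oxidase) rose by 1.16, C3 (the central complement component) by 0.76 and Serpina3n (a protease inhibitor of reactive astrocytes) by 0.73. The member that did not pass was Timp1, an inhibitor of matrix metalloproteinases. It lay at the floor on all mock arrays, at 8.04, 8.15 and 8.04 in LPS+genipin and at 10.48, 10.78 and 10.64 in LPS, where it was at least 6.05-fold above mock.

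Genes of LPS recognition rose in 6 of 14 measured members, and the median was 0.27 (0.30 in LPS). Of the 6 members tested with the low genes left out, 2 rose. Cd14, the co-receptor that presents LPS, had levels of 9.03, 9.19 and 9.07 in mock, 13.07, 13.32 and 13.26 in LPS and 11.64, 11.80 and 11.72 in LPS+genipin. The 3 groups did not overlap, and LPS+genipin lay between the others, 2.62 ± 0.08 (SE, adjusted p = 7.12e-07) above mock and -1.50 (adjusted p = 1.72e-05) from LPS. Lbp, the plasma protein that carries LPS to Cd14, was at the floor on all mock arrays and at 9.95, 10.08 and 10.05 in LPS and 9.92, 10.11 and 10.24 in LPS+genipin. It was thus at least 4.15-fold above mock, and LPS+genipin overlapped LPS (difference 0.06, adjusted p = 0.577). Irak3, an inhibitory kinase-like protein of the pathway, was at least 2.13-fold above mock. Tlr2, a receptor for bacterial lipoproteins, was at the floor in mock, at 11.33, 11.16 and 11.02 in LPS and at 8.87, 8.62 and 9.08 in LPS+genipin, so it was at least 1.76-fold above mock, and with a floor at the 10th percentile its difference was 0.45 (adjusted p = 0.0562). Myd88, the adaptor shared by most Toll-like receptors, rose by 0.55, beside 1.25 in LPS.

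Of 12 measured NF-kB subunits and feedback genes, 5 rose and 7 did not pass, with a median of 0.19, whereas in LPS alone 8 rose and 1 fell with a median of 0.61. Nfkbia, which encodes the inhibitor that NF-kB itself induces, had levels of 13.96, 13.97 and 13.82 in mock, 15.45, 15.30 and 15.41 in LPS and 14.64, 14.62 and 14.80 in LPS+genipin. The LPS+genipin arrays lay 0.77 ± 0.07 (SE, adjusted p = 0.000341) above mock, about midway to LPS on the log2 scale (1.47). Birc3, an inhibitor of apoptosis, rose by 0.86 (2.04 in LPS), Nfkb2 by 0.79 (1.78), Bcl3 by 0.46 (1.17) and Tnfaip3, the deubiquitinase that ends NF-kB signalling, by 0.36 (2.01). The LPS+genipin minus LPS difference passed as lower in 8 of the 12 genes. With the low genes left out, 7 members were tested against mock and 1 rose.

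Ligand genes passed in both directions. Of 7 measured chemokine genes, 2 rose and 1 fell. Ccl12, a monocyte chemokine, was at the floor in mock, at 11.62, 11.30 and 11.35 in LPS and at 10.47, 10.26 and 10.40 in LPS+genipin, at least 5.06-fold above mock. Ccl9 rose by 1.09 (2.16 in LPS). Cxcl12, a chemokine that endothelium and meninges make without inflammation, had levels of 12.53, 12.54 and 12.74 in mock, 10.01, 10.23 and 9.86 in LPS and 11.48, 11.59 and 11.60 in LPS+genipin. It was below mock on every array of both treated groups, by 2.07-fold in LPS+genipin (difference -1.05 ± 0.10, SE, adjusted p = 0.000411), and its LPS+genipin minus LPS difference was 1.52 (adjusted p = 5.24e-05).

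Of 7 measured cytokine genes, 2 rose and 1 fell, and the count of higher genes was 1 without any single mock or LPS+genipin array or the first LPS array. The colony-stimulating factor gene Csf1 rose by 0.52 (0.98 in LPS). Il16 had levels of 11.97, 12.04 and 11.85 in mock, 12.41, 12.50 and 12.43 in LPS and 11.08, 11.14 and 11.07 in LPS+genipin, so that LPS+genipin lay below both other groups (difference from mock -0.86 ± 0.06, SE, adjusted p = 5.26e-05). The precursor of the Il16 ligand also exists as a neuronal protein expressed in cerebellum, and cerebellar markers moved the same way, as described below. Their part in the result was not tested. Receptor genes rose in 3 of 10. Il1r1, the interleukin 1 receptor of brain endothelium, had levels of 9.12, 9.22 and 9.23 in mock, 10.60, 10.56 and 10.42 in LPS and 10.59, 10.66 and 10.64 in LPS+genipin. Both treated groups were above mock and overlapped each other, with a difference of 1.44 ± 0.06 (SE, adjusted p = 3.83e-06) from mock and 0.10 (adjusted p = 0.245) between them. Il4ra rose by 1.02 and Tnfrsf1a, the main receptor for tumour necrosis factor, by 0.98. A further receptor gene, Csf3r, passed as lower (-0.26), and that call was lost without any single array other than the first LPS+genipin array.

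Of 7 measured guanylate-binding proteins and immunity-related GTPases, which attack vacuoles holding microbes, 5 rose with a median of 0.81, whereas all 7 rose in LPS alone with a median of 2.34, and all 7 were lower in LPS+genipin than in LPS. Gbp2 had levels of 9.06, 9.25 and 9.12 in mock, 12.96 to 13.08 in LPS and 10.43, 10.47 and 10.31 in LPS+genipin. The 3 groups were separate, with LPS+genipin 1.26 ± 0.07 (SE, adjusted p = 1.72e-05) above mock and -2.61 (adjusted p = 1.41e-06) from LPS. Ifi47 levels were 8.32, 8.48 and 8.35 in mock, 12.29, 12.50 and 12.60 in LPS and 10.10, 10.14 and 10.02 in LPS+genipin, a difference of 1.70 against 4.08 in LPS. Gbp3, Irgm1 and Irgm2 rose by 0.86, 0.81 and 0.48. Gbp6 did not pass (0.05, against 0.42 in LPS), and Igtp lay at the floor on all mock and LPS+genipin arrays and at 9.74, 9.96 and 9.77 in LPS.

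Antiviral interferon-stimulated genes rose in 9 of 20 (5 of 20 without the second mock array) with a median of 0.30, and in LPS alone 16 rose and 1 fell with a median of 1.30. Ifitm3, which blocks viral entry by membrane fusion, had levels of 12.12, 12.12 and 12.13 in mock, 14.19, 14.25 and 14.32 in LPS and 13.39, 13.38 and 13.38 in LPS+genipin. It lay between the groups on every array, 1.26 ± 0.04 (SE, adjusted p = 1.61e-06) above mock. Rsad2 (viperin, which makes a chain-terminating nucleotide) was at 8.19, 8.27 and 8.07 in mock, 12.15, 12.33 and 12.19 in LPS and 8.94, 8.57 and 8.88 in LPS+genipin. Its difference from mock was 0.62 (adjusted p = 0.00606) against 4.04 in LPS, and the LPS+genipin minus LPS difference was -3.43. Parp9 (0.60), Ifit3 (0.53), Bst2 (0.49), Oasl2 (0.49) and Ifih1 (0.45) also rose. Isg15, a ubiquitin-like modifier, and Usp18, the protease that removes it, were at the floor in mock and at least 1.50-fold and 1.46-fold above it, and with a floor at the 10th percentile the Isg15 difference was 0.22 (adjusted p = 0.132). With the low genes left out, 8 members were tested and 2 rose.

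Transducers of interferon and cytokine signals rose in 4 of 14. Among these were the transcription factor genes Stat3 (0.63), Irf7 (0.47) and Irf1 (0.45, against 2.07 in LPS). Socs3, the inhibitor that Stat3 induces to end cytokine signalling, had levels of 10.21, 10.13 and 10.05 in mock, 13.17, 13.09 and 12.96 in LPS and 12.18, 12.09 and 12.05 in LPS+genipin. It rose by 1.98 ± 0.07 (SE, adjusted p = 1.84e-06), and its LPS+genipin minus LPS difference was -0.97. None of the 13 measured genes of MHC class I presentation passed in limma, although 3 were higher and 1 lower at an unadjusted p under 0.05. Without the second LPS array, 2 were called higher and 1 lower, and without the second LPS+genipin array 1 was called lower. The light chain gene B2m was at 11.96, 11.92 and 11.89 in mock and 12.44, 12.46 and 12.50 in LPS+genipin, with no overlap, and at 12.54, 11.50 and 12.61 in LPS, where 1 array lay below mock. Its difference from mock was 0.54 (adjusted p = 0.213), and without the second LPS array the adjusted p was 0.000303.

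The start regions of Icam1, Socs3, Ifitm3 and Gbp2 are shown because these genes stayed above mock and carry letters of the factors of these pathways. The letters searched were TTCNNNGAA for STAT factors, GAAA, any 2 bases and GAAA for the interferon-stimulated response element (ISRE) and the NF-kB motif by name, each on both strands. Icam1 and Socs3 head the genes at least 2-fold above mock with STAT letters. Ifitm3 and Gbp2 were taken for ISRE letters among members of the GTPase and antiviral lists only. Spp1 (2.68 above mock) and Srgn (1.32) also carry ISRE letters, are in neither list and are not shown. The windows are again from RefSeq, GRCm38.p6, with all matches in capitals. The Icam1 window is chr9:21015690-21015989 on the plus strand, with TTCCCGGAA starting at -42. The Socs3 window is chr11:117969317-117969616 on the minus strand, with TTCTTAGAA at -154. The Ifitm3 window is chr7:141010695-141010994 on the minus strand, with an NF-kB match at -116, ISRE matches at 3 and 20 and a STAT match at 14 that overlaps the second ISRE match. The Gbp2 window is chr3:142620413-142620712 on the plus strand, with an ISRE match at -59 and an NF-kB match at 8.
Icam1: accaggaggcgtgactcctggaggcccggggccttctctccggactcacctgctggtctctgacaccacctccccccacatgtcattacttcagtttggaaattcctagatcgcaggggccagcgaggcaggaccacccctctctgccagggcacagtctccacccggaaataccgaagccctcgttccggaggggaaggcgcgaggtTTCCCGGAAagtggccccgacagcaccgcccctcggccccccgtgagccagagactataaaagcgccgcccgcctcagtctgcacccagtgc
Socs3: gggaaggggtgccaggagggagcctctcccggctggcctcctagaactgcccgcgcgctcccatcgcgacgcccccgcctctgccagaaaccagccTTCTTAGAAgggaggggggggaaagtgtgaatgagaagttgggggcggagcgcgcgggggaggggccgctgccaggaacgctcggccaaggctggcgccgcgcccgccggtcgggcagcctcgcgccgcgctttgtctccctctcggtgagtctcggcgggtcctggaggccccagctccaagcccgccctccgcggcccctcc
Ifitm3: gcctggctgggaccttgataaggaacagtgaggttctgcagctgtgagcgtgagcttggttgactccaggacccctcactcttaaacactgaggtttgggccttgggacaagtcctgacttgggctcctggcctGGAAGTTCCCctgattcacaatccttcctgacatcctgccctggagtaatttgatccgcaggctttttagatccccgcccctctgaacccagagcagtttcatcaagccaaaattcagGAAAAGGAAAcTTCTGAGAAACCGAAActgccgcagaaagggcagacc
Gbp2: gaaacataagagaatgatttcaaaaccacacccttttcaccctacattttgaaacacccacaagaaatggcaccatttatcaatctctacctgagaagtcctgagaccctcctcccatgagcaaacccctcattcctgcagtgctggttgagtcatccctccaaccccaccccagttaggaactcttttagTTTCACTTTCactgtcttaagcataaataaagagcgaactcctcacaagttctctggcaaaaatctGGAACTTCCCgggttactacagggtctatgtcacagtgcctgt

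Among the 91 genes at least 2-fold above mock with a window, NF-kB letters were in 18 (19.8%), STAT letters in 11 (12.1%) and ISRE letters in 4 (4.40%). The shares among the 8260 measured genes with a window were 12.5%, 8.22% and 3.27%. Over all 27025 genes with a window they were 9.55%, 9.55% and 3.99%. These shares are descriptions and were not tested.

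**Figure D2:**
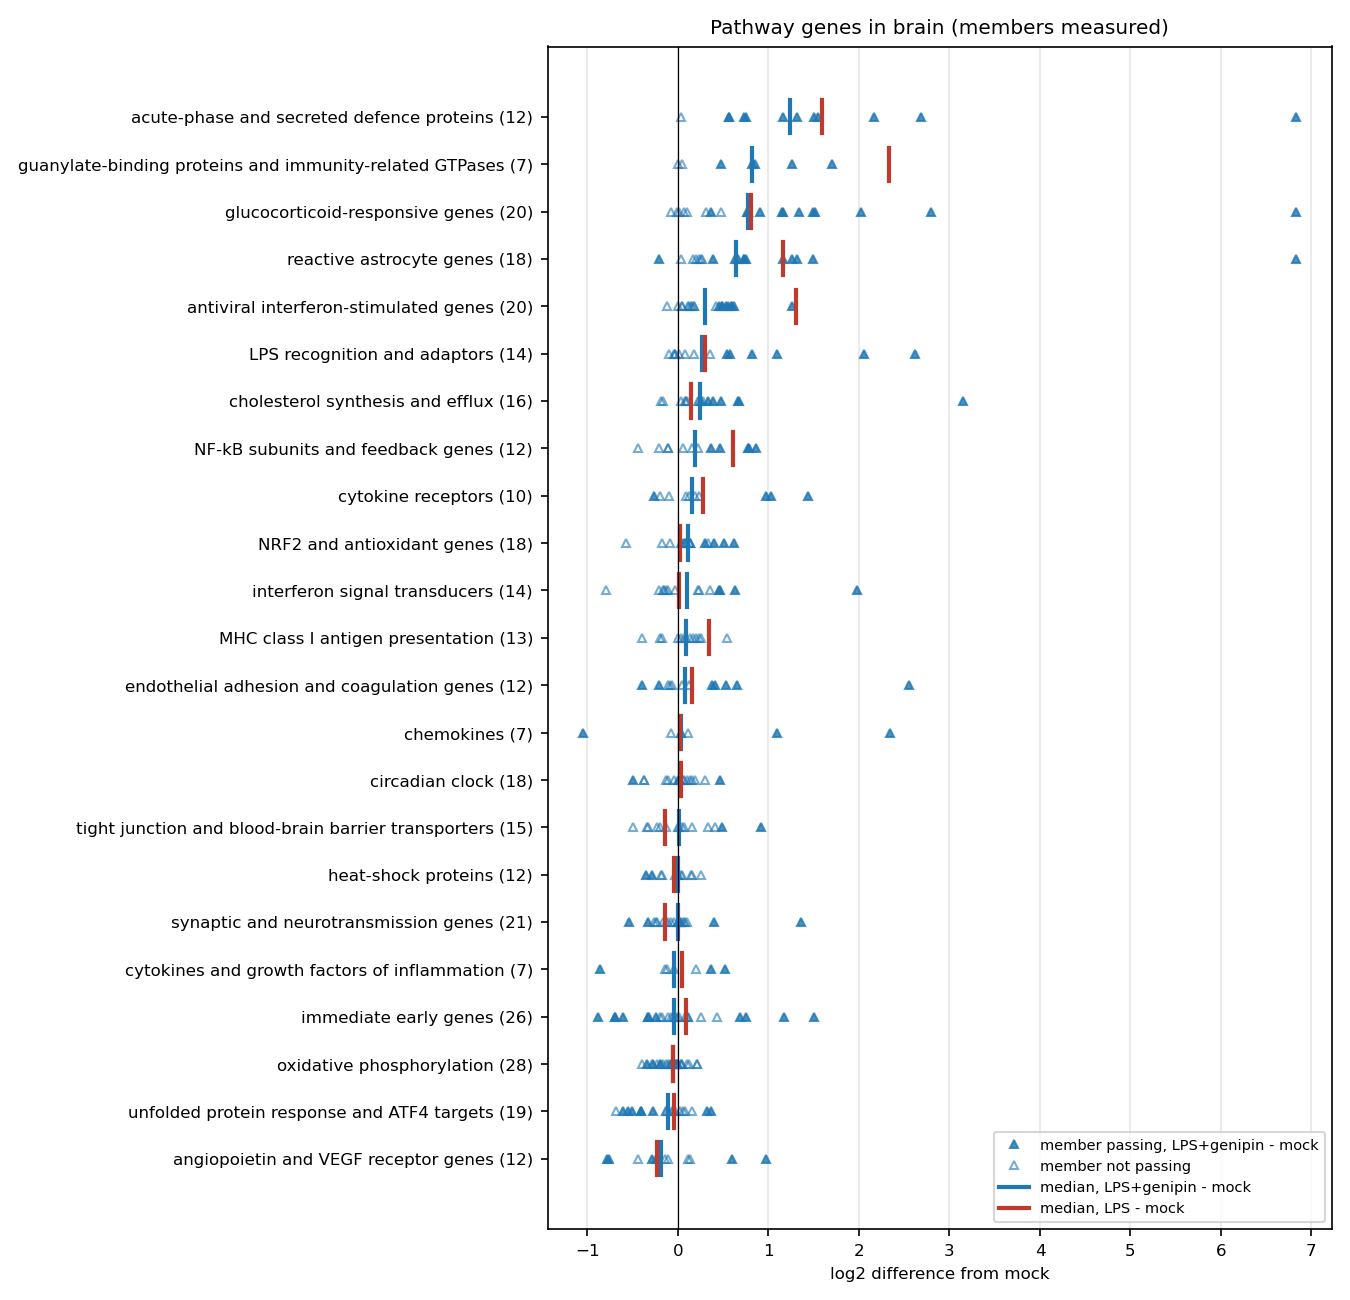
Log2 LPS+genipin minus mock difference of every measured member of each pathway list (filled where it passed the test, open where not), with the list median for LPS+genipin minus mock and for LPS minus mock. The acute-phase list has the highest LPS+genipin median, 1.24, and the median of the guanylate-binding proteins and immunity-related GTPases is 0.81 against 2.34 in LPS.

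Icam1, the adhesion molecule through which leukocytes bind endothelium, had levels of 8.49, 8.37 and 8.47 in mock, 12.52, 12.69 and 12.52 in LPS and 10.98, 11.05 and 10.96 in LPS+genipin. The 3 groups were separate, with LPS+genipin 2.55 ± 0.06 (SE, adjusted p = 1.76e-07) above mock and -1.58 (adjusted p = 4.75e-06) from LPS. Of 12 measured genes of endothelial adhesion and coagulation, 5 rose and 2 fell. Vcam1 rose by 0.66, F3 (tissue factor) by 0.53 and Plat (tissue plasminogen activator) by 0.38. Thbd (thrombomodulin, an anticoagulant receptor) fell by 0.40. The count of lower genes was 1 without any single mock or LPS+genipin array or the first LPS array.

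Of 12 measured angiopoietin and VEGF genes, which govern vessel growth and stability, 2 rose and 3 fell (1 each of the 7 tested with the low genes left out). Tek, the angiopoietin receptor, was at -0.76 and Kdr, the main VEGF receptor, at -0.79, beside -1.86 and -1.43 in LPS. Angpt2, the ligand that opposes Tek signalling, rose by 0.97 (1.90 in LPS) and Pgf by 0.60. Of 16 endothelial cell markers, 4 rose and 4 fell with a median of -0.18 (-0.34 in LPS), so the markers did not move as a block. With the low genes left out 8 were tested and 0 fell. The endothelial transcription factor genes Sox18 and Sox17 were at -0.75 and -0.59, while Ly6a (0.81), Robo4 (0.49) and the junction gene Cdh5 (0.45) rose. Of 15 tight junction and blood-brain barrier genes, 2 rose and none passed as lower (4 higher and 3 lower at an unadjusted p under 0.05). One of those that rose was Mfsd2a, the lipid transporter of barrier endothelium, at 0.92 (0.52 in LPS). The count of higher genes was 1 without any single mock array, the second LPS array or the second or the third LPS+genipin array, and 1 gene was called lower without the second mock, second LPS or the third LPS array.

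Glucocorticoid-responsive genes, among which Lcn2 and Plin4 are counted, were the list with the most genes called above mock by number. By share other lists were higher, such as the acute-phase list with 11 of 12 (8.80% of all genes rose). Of the 20 glucocorticoid-responsive genes measured, 13 rose and 7 did not pass, with a median of 0.77. In LPS alone 14 rose with a median of 0.80. Against LPS, 4 were higher and 6 lower in LPS+genipin, with a median of -0.04. Fkbp5, a co-chaperone of the glucocorticoid receptor, had levels of 12.46, 12.63 and 12.49 in mock, 13.91, 13.65 and 13.98 in LPS and 14.22, 13.99 and 13.85 in LPS+genipin. Both treated groups lay above mock and overlapped each other, with a difference of 1.50 ± 0.12 (SE, adjusted p = 0.000133) from mock and 0.18 (adjusted p = 0.299) between them.

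Angptl4, an inhibitor of lipoprotein lipase, was at 9.88, 9.95 and 9.99 in mock, 12.23, 12.55 and 12.24 in LPS and 11.97, 12.03 and 11.89 in LPS+genipin, 2.02 above mock. Cdkn1a (the cell-cycle inhibitor p21) rose by 1.51, Arrdc2 by 1.34, Sult1a1 (a sulfotransferase) by 1.15, Sgk1 (a kinase induced by corticosteroids) by 0.90 and Ddit4 by 0.77. Pdk4, the kinase that shuts off pyruvate dehydrogenase, rose by 0.76 and was at 0.15 in LPS, which did not pass. The metallothionein genes Mt1 and Mt2 were saturated in mock and LPS+genipin and have no fold. Depp1, a gene that progesterone and fasting induce, was outside the list and had levels of 9.04, 9.08 and 8.88 in mock, 12.40, 12.32 and 12.53 in LPS and 11.32, 11.46 and 11.63 in LPS+genipin, 5.55-fold above mock.

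Plin4, a coat protein of lipid droplets, was higher in LPS+genipin than in either other group. Its levels were 9.70, 9.65 and 9.47 in mock, 11.83, 11.88 and 11.64 in LPS and 12.53, 12.34 and 12.32 in LPS+genipin. The difference from mock was 2.79 ± 0.09 (SE, adjusted p = 1.26e-06), 6.93-fold, and from LPS it was 0.61 (adjusted p = 0.0023). Ch25h, which makes the antiviral oxysterol 25-hydroxycholesterol, was at 8.50, 8.65 and 8.57 in mock, 12.52, 12.54 and 12.53 in LPS and 11.72, 11.63 and 11.82 in LPS+genipin, 8.89-fold above mock. Of 16 genes of cholesterol synthesis and efflux, 7 rose with a median of 0.24 (6 in LPS, median 0.15). They included Insig1 (0.67), which retains sterol sensors in the endoplasmic reticulum, the efflux pump gene Abca1 (0.66) and the synthesis gene Lss (0.47).

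Immediate early genes, which neurons and vessels switch on within minutes of stimulation, went both ways. Of 26 measured, 4 rose and 7 fell with a median of -0.04, and in LPS alone 12 rose and 9 fell. Zfp36, which destabilises cytokine mRNAs, was at 9.46, 9.54 and 9.72 in mock, 12.21, 11.93 and 12.16 in LPS and 11.17, 11.05 and 11.01 in LPS+genipin, 1.51 above mock. Ccn1 rose by 1.17, Maff by 0.75 and Gadd45g by 0.69. Among the genes that fell, Arc, a regulator of synaptic receptor uptake, was at -0.88 (-1.46 in LPS), Egr2 at -0.70 (-1.57), Npas4 at -0.69 (-0.68) and Nr4a2 at -0.61 (-0.98). Bdnf, a neurotrophin gene of the synaptic list, was at -0.54 (-0.91 in LPS).

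Reactive astrocyte genes rose in 11 of 18 with a median of 0.65, and in LPS alone all 18 rose with a median of 1.16. Those that rose include Lcn2, Serpina3n, Cp, Gbp2, Fkbp5 and Stat3, which were already counted in lists above. The counts of this list are thus not separate from theirs. Srgn, a proteoglycan core gene, rose by 1.32, Gfap, the astrocyte intermediate filament, by 0.75 (0.50 in LPS) and Ptgs2, the inducible cyclooxygenase of brain vessels, by 0.73 (1.15). Cd44, a hyaluronan receptor, passed as lower at -0.21 (adjusted p = 0.0498, close to the threshold), and was 0.67 in LPS. That call was lost without any single mock or LPS+genipin array or the first LPS array, and the adjusted p in the alternatives that lost it was 0.0508 to 0.156. General astrocyte markers rose in 4 of 10, and in 2 without any 1 of the mock arrays or without the first LPS+genipin array. Spp1 (osteopontin, a secreted phosphoprotein of activated macrophages and glia, counted in the acute-phase list) was at 9.42, 9.38 and 9.44 in mock, 12.53, 12.55 and 12.77 in LPS and 12.09, 12.13 and 12.07 in LPS+genipin, 6.42-fold above mock.

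Of 19 microglial markers, 2 rose and 5 fell with a median of -0.11 (1 rose without the first mock array, and 3 of 13 tested fell with the low genes left out), and in LPS alone 2 rose and 14 fell with a median of -0.50. Against LPS, 11 were higher in LPS+genipin and none passed as lower. Cx3cr1, the fractalkine receptor, had levels of 10.69, 10.69 and 10.63 in mock, 8.26, 8.40 and 8.52 in LPS and 9.71, 9.88 and 9.84 in LPS+genipin. The LPS+genipin arrays lay between the others without overlap, -0.86 ± 0.07 (SE, adjusted p = 0.000227) from mock and 1.42 from LPS.

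P2ry12, the purinergic receptor that guides microglial processes, was at 12.35, 12.36 and 12.41 in mock, 10.90, 10.79 and 10.85 in LPS and 11.86, 11.96 and 11.86 in LPS+genipin, -0.48 from mock. Gpr34, a lysophosphatidylserine receptor, was at 10.40, 10.54 and 10.40 in mock, at the floor on all LPS arrays and at 9.05, 9.29 and 9.44 in LPS+genipin. It was 2.28-fold below mock in LPS+genipin and at least 5.31-fold below mock in LPS. Tmem119 was at -0.63 (adjusted p = 0.0161), and the call was lost without the first mock array (-0.59, adjusted p = 0.0670) or the third (-0.60, adjusted p = 0.0647). In contrast, the complement gene C1qb rose by 0.62 and Tyrobp, a signalling adaptor, by 0.28, so the list did not move as a block.

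**Figure D3:**
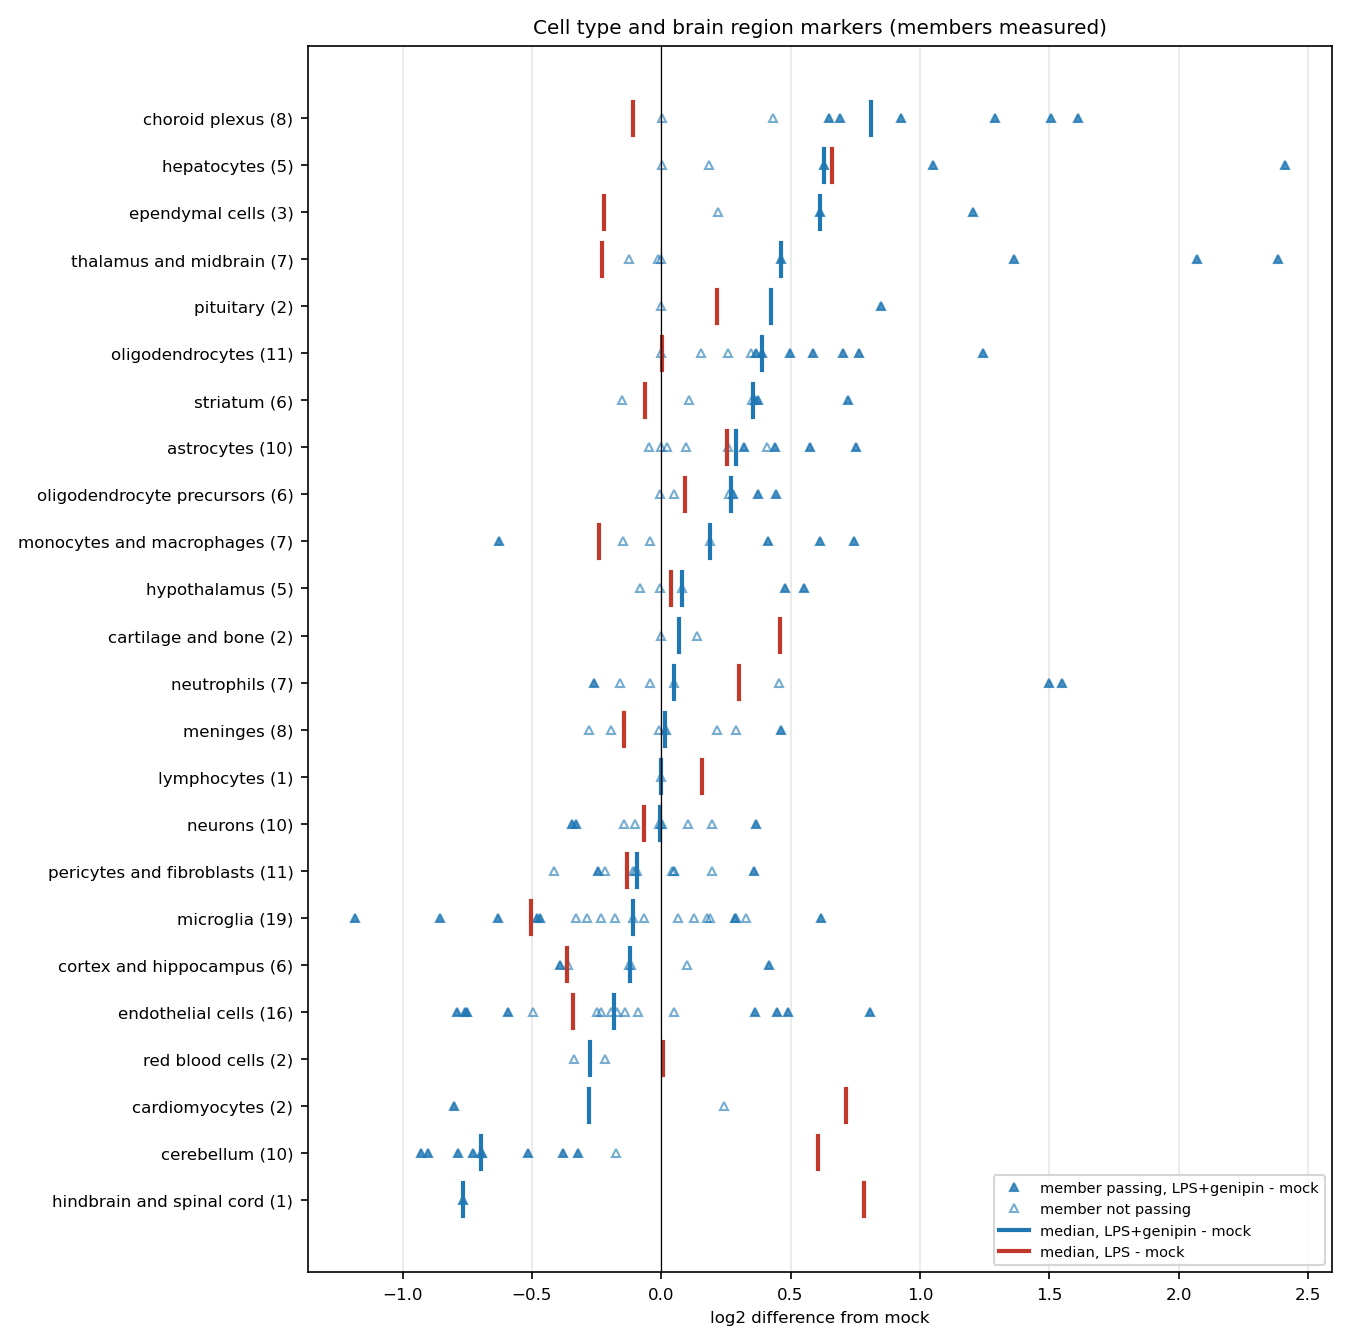
Log2 LPS+genipin minus mock difference of every measured member of each cell type and region list other than skeletal muscle (filled where it passed the test, open where not), with the list median for LPS+genipin minus mock and for LPS minus mock. Choroid plexus (median 0.81), thalamus and midbrain (0.46) and oligodendrocytes (0.39) lie above 0, and cerebellum (-0.70) lies below.

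A separate set of genes was above mock in LPS+genipin and at or below mock in LPS alone. The most distant was Tcf7l2, a transcription factor of Wnt signalling that is abundant in thalamus. Its levels were 11.35, 11.31 and 11.30 in mock, 10.03, 10.22 and 9.88 in LPS and 13.51, 13.39 and 13.28 in LPS+genipin. The 3 groups were separate, and LPS+genipin lay 2.07 ± 0.09 (SE, adjusted p = 5.31e-06) above mock and 3.35 (adjusted p = 1.41e-06) above LPS. Slc17a6, the vesicular glutamate transporter of subcortical neurons, was at 13.11, 13.16 and 13.24 in mock, 12.64, 12.82 and 12.47 in LPS and 14.58, 14.57 and 14.46 in LPS+genipin, 1.36 above mock and -0.53 in LPS. Zfhx3, a homeobox factor gene, was at 9.79, 9.84 and 9.78 in mock, 9.25, 9.34 and 9.06 in LPS and 11.63, 11.36 and 11.35 in LPS+genipin. Both genes were thus highest in LPS+genipin and lowest in LPS. Prkcd, protein kinase C delta, which is enriched in thalamus, was at 11.10, 11.18 and 11.11 in mock, 12.34, 12.33 and 12.70 in LPS and 13.43, 13.53 and 13.58 in LPS+genipin, 2.39 ± 0.10 (SE, adjusted p = 4.22e-06) above mock, and unlike the others it was also above mock in LPS (1.33). Of 7 thalamic and midbrain markers, which include Tcf7l2, Slc17a6 and Prkcd, 4 rose with a median of 0.46, and in LPS alone 2 rose and 3 fell with a median of -0.23. That median of differences is below 0 although the median level of the list was higher in LPS than in mock, because a different gene is the middle one on each scale. Striatal markers rose in 3 of 6 (median 0.36), and Tac1, the substance P precursor gene, was 0.72 above mock and -0.80 in LPS. The part that region content took in these results was not tested.

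Choroid plexus genes rose in 6 of 8 (2 of 4 tested with the low genes left out) with a median of 0.81, against 2 higher and 3 lower in LPS alone with a median of -0.11. Clic6, a chloride channel-like protein, had levels of 9.09, 9.18 and 9.04 in mock, 9.25, 9.32 and 9.43 in LPS and 10.45, 10.85 and 10.84 in LPS+genipin, 1.61 ± 0.11 (SE, adjusted p = 5.52e-05) above mock. Kl, which encodes the hormone co-receptor klotho, was at 9.85, 9.78 and 9.83 in mock, 9.21 or less in LPS and 11.17, 11.39 and 11.42 in LPS+genipin. It was 1.51 above mock in LPS+genipin and -0.75 from it in LPS. Ttr, the thyroxine carrier that is the most abundant choroid plexus mRNA, was saturated in mock and in LPS+genipin and has no fold between them. In LPS it was at 11.64, 11.23 and 11.73 and thus far below mock on every array. Ecrg4, another choroid plexus gene outside the list, was 1.53 above mock and -0.83 in LPS. Folr1 was at the floor in mock and at least 1.57-fold above it, and Otx2, Sostdc1 and Igf2 rose by 0.93, 1.29 and 0.69. Of the 3 ependymal genes measured, 2 rose.

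Oligodendrocyte genes rose in 7 of 11 with a median of 0.39, against 3 higher and 1 lower in LPS with a median of 0.00. Mobp, a myelin structural gene, had levels of 13.32, 13.38 and 13.43 in mock, 13.96, 14.15 and 14.13 in LPS and 14.61, 14.72 and 14.53 in LPS+genipin. Its difference from mock was 1.24 ± 0.07 (SE, adjusted p = 2.43e-05), and the LPS arrays lay between. Mog (0.76), Cnp (0.70), Mal (0.59) and Mag (0.50), all proteins of myelin, rose too, and Mbp was saturated. Etnppl, an astrocyte enzyme of phosphoethanolamine breakdown, was at 8.04, 8.04 and 8.25 in mock, 8.77, 9.04 and 8.81 in LPS and 10.20, 10.36 and 10.13 in LPS+genipin, 2.12 above mock and 1.35 above LPS. Its mock arrays lay at or close to the floor, so its difference from mock may be larger.

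Outside the muscle list, genes at least 2-fold below mock were fewer, 10 against 108 above. Hsd3b2, an enzyme of steroid hormone synthesis, was the most distant. Its levels were 11.60, 11.51 and 11.79 in mock, 9.75, 9.61 and 9.86 in LPS and 8.37, 8.18 and 8.42 in LPS+genipin, a 9.93-fold lower level (difference -3.31 ± 0.10, SE, adjusted p = 7.12e-07). The symbol is that of the platform's annotation, and the enzyme family has near-identical copies that a probe may not separate. Fbln7, an extracellular matrix protein, was at 10.47, 10.81 and 10.73 in mock, 8.68, 8.85 and 9.17 in LPS and 8.06, 8.10 and 8.04 in LPS+genipin, 6.07-fold lower. Its LPS+genipin arrays lay at or close to the floor, so its fold may be larger. In both genes LPS+genipin lay farther from mock than LPS did. Ctrb1, a digestive protease gene, was at -1.83 (-0.73 in LPS), Unkl at -1.31 (-0.95), Insyn1 at -0.93 (-1.28) and Pdlim3, a protein of muscle Z-discs that is not in the muscle list, at -1.55 (-1.50). Rnd1 was at the floor in LPS+genipin and at least 1.90-fold below mock.

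Among the other genes below mock were markers of the cerebellum. Of 10 cerebellar markers, 8 fell in LPS+genipin against mock, with a median of -0.70. In LPS alone 7 rose with a median of 0.61, and all 10 were lower in LPS+genipin than in LPS. Cbln1, the synaptic organiser released by granule cells, had levels of 15.14, 15.18 and 15.08 in mock, 15.89, 15.85 and 15.92 in LPS and 14.38, 14.42 and 14.40 in LPS+genipin. Gabra6, the granule-cell subunit of the GABA-A receptor, was at 13.89, 13.98 and 14.01 in mock, 14.69, 14.85 and 14.77 in LPS and 13.06, 13.13 and 12.99 in LPS+genipin. In both genes every LPS array was above mock and every LPS+genipin array below it, with LPS+genipin differences of -0.73 ± 0.04 (SE, adjusted p = 2.7e-05) and -0.90 ± 0.06 (SE, adjusted p = 5.44e-05). En2, a homeobox gene of midbrain and cerebellum, was at -0.93 (adjusted p = 0.0106) and Neurod1, a factor of granule cells, at -0.79. The Purkinje-cell genes Pcp2 (-0.18) and Car8 (-0.70) did not pass. Eomes, also found in cerebellar unipolar brush cells, was at the floor in LPS+genipin and below mock there. Cnpy1 (-1.27) and Gprc5c (-1.12) were below mock as well, while in LPS alone, at 0.19 and 0.15, they did not pass. The part of cerebellar content in these values was not tested.

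Skeletal muscle genes are kept apart because they are typical of another tissue and were high in the mock brains, and where this mRNA came from was not tested. Of 46 measured, 30 fell and 1 rose in LPS+genipin, with a median of -0.72 (15 of 22 tested fell with the low genes left out), and in LPS alone 30 fell and 1 rose with a median of -0.61. Mylpf, a fast myosin light chain, had levels of 15.64, 15.76 and 15.65 in mock, 8.37, 8.60 and 8.19 in LPS and 8.92, 8.76 and 8.80 in LPS+genipin, 116-fold below mock in LPS+genipin. Tnnc2, fast troponin C, was at 13.83, 13.80 and 13.74 in mock, 8.66, 8.88 and 8.97 in LPS and 8.47, 8.49 and 8.44 in LPS+genipin, and Acta1, skeletal actin, at 15.37, 15.36 and 15.28, 11.12, 11.22 and 11.11 and 11.46, 11.29 and 11.29. Both treated groups were low on every array. Actn3 and Cox8b were at the floor in LPS+genipin and at least 13.3-fold and 4.92-fold below mock. The array medians of the 10 genes with the largest differences reached 12.1 in mock, 8.61 in LPS and 8.52 in LPS+genipin.

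The muscle list member that rose was Tnnt1, slow troponin T, at 9.67, 9.44 and 9.62 in mock, 9.37, 9.54 and 9.47 in LPS and 11.42, 11.55 and 11.82 in LPS+genipin. It was 2.02 ± 0.11 (SE, adjusted p = 1.77e-05) above mock in LPS+genipin and overlapped mock in LPS (-0.11), so it moved apart from the rest of the list.

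**Figure D4:**
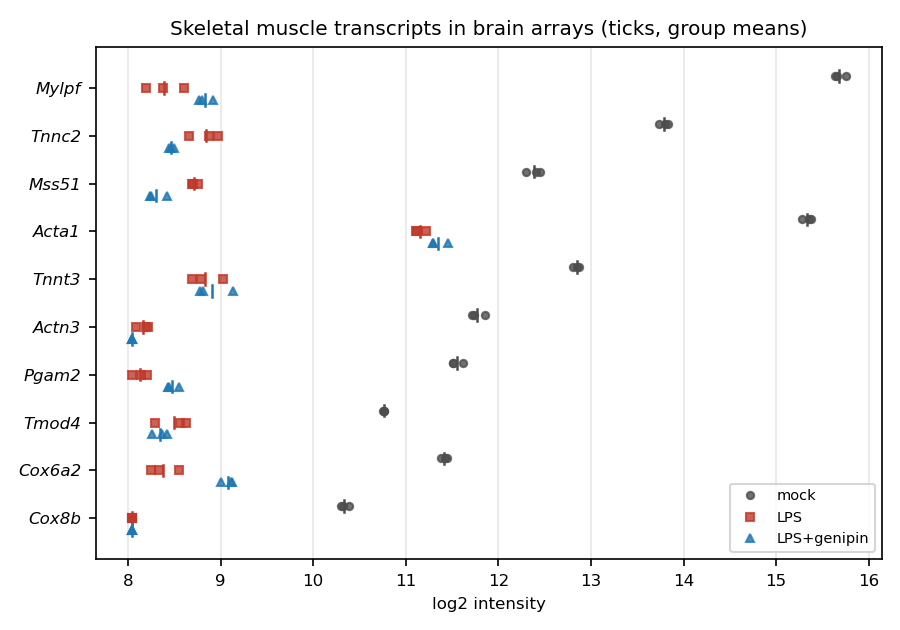
Log2 level of the 10 skeletal muscle genes with the largest LPS+genipin minus mock differences, on each of the 9 brain arrays. Each gene is high on the 3 mock arrays, with array medians of up to 12.1 over the genes, and low on the 3 LPS and 3 LPS+genipin arrays.

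Transcripts of other non-brain cells were few. Of 5 hepatocyte genes 3 rose with a median of 0.63 (4 rose and 1 fell in LPS, and 1 of 2 tested rose with the low genes left out), led by Alb, the plasma albumin gene, which was at the floor in mock, at 10.02, 9.94 and 10.22 in LPS and at 10.57, 10.62 and 10.17 in LPS+genipin, at least 5.33-fold above mock. Apoa1, a plasma lipoprotein gene, rose by 1.05, and Trf, which was already at 14.0 in mock brains, by 0.63. The mean of Apoa1 in mock was at the floor level of 8.04, so its rise may be larger. The list also holds Ttr, the choroid plexus gene above, which was the member that fell in LPS. Its counts and median are thus not those of liver transcripts alone. Of 7 neutrophil markers 2 rose, the calprotectin genes above, and 1 fell (Csf3r, as above), with a median of 0.05. Monocyte and macrophage markers rose in 3 of 7 (1 of 3 with the low genes left out), among them Lyve1 (0.74) and Mrc1 (0.61) of border macrophages, and 1 passed as lower (none without the first or the third mock array or the first or second LPS+genipin array). Of the 2 red blood cell genes and the 1 lymphocyte gene measured, none was called (1 red blood cell gene lower at an unadjusted p under 0.05, and called without the second LPS array).

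Several lists passed in few members. Of all genes, 8.80% passed as higher and 5.61% as lower, and a count near these shares says nothing particular about its list. Heat-shock genes fell in 2 of 12, none without any 1 mock array or without the second or the third LPS+genipin array, and 1 without the first (1 rose without the first mock array). Oxidative phosphorylation genes fell in 3 of 28, none without the first or the third mock array, and 1 without the second mock array or any 1 LPS+genipin array. Antioxidant genes of the NRF2 pathway rose in 4 of 18, among them Nfe2l2 itself (0.62), and in 2 without the first or second mock array or the second LPS+genipin array. Unfolded protein response genes rose in 2 and fell in 6 of 19. Without any 1 mock array or the second LPS+genipin array 1 fell, without the third LPS+genipin array 2 fell, and the count that rose was 0 without the first mock array and 1 without any other mock or LPS+genipin array. General neuronal markers rose in 1 and fell in 2 of 10, against 0 and 1 without any 1 mock array. Synaptic genes, among them Slc17a6 and Bdnf, rose in 2 and fell in 2 of 21, and 1 fell without any 1 mock array or without the first or the third LPS+genipin array.

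Some genes at least 2-fold from mock, with the muscle list left out, were nearly level with LPS alone. With the smallest LPS+genipin minus LPS differences were Wnt3 (1.10 from mock, 1.11 in LPS), the cytochrome gene Cyp1b1 (1.39, 1.42), the transcription factor gene Mafk (1.17, 1.12), the apoptosis gene Pmaip1 (1.48, 1.55) and Agt (1.33, 1.43), the angiotensinogen gene of astrocytes. The Lbp, Il1r1, Arrdc2 and Pdlim3 values above also belong here. Agt levels were 10.74, 10.75 and 10.72 in mock, 12.10, 12.27 and 12.12 in LPS and 12.20, 12.04 and 11.95 in LPS+genipin, with both treated groups overlapping. A difference that misses the threshold does not show that genipin left these genes as they were in LPS. With the largest LPS+genipin minus LPS differences, again outside the muscle list, were Tcf7l2 (3.35), Gbp2 (-2.61), Ifi47 (-2.38), Ecrg4 (2.36), Kl (2.25), Zfhx3 (2.23), Igsf1 (1.99), Tal1 (1.97), Slc17a6 (1.89) and Amotl1 (1.66). Gbp2 and Ifi47 were nearer mock than in LPS, and the other 8 were above both.

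The same contrast was available in heart, kidney and liver, with 3 arrays per group. Of 6861 genes measured in all 4 tissues, the brain difference departed from the mean of the other tissues in 2433 (35.5%), 19.3% with brain above and 16.1% with brain below. Lcn2 was far above mock in every tissue (brain 6.83, heart 5.80, kidney 6.74 and liver 2.96, the last one saturated in LPS+genipin). Plin4 was 2.79 in brain and 0.55, 0.95 and -0.33 in heart, kidney and liver, and Prkcd was 2.39 against 0.11, 0.22 and 1.28. Tcf7l2 stood at 2.07 in brain and -0.10, -0.16 and -0.24 elsewhere. Pcolce2, a collagen-processing enhancer, and Ddc, which makes dopamine and serotonin, were above mock in brain (1.54 and 1.30) and below it in the 3 other tissues.

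Inflammatory genes whose brain difference was lower than elsewhere included S100a9 (1.50 in brain, 3.01, 3.81 and 3.79 in heart, kidney and liver) and Tifa, an adaptor of NF-kB signalling (0.61 against 1.95, 1.44 and 4.22). Tlr2 was at the floor in mock brain, so its brain difference is at least 0.82 and its distance from the 2.17, 2.41 and 4.25 of heart, kidney and liver is not settled by these arrays. Serpina3n was 0.73 in brain, 4.08 in heart and 5.03 in kidney, and in liver, where it was saturated in LPS+genipin, 0.75. Icam1 was nearer to even, at 2.55 in brain and 3.09, 3.22 and 3.80 in heart, kidney and liver.

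**Figure D5:**
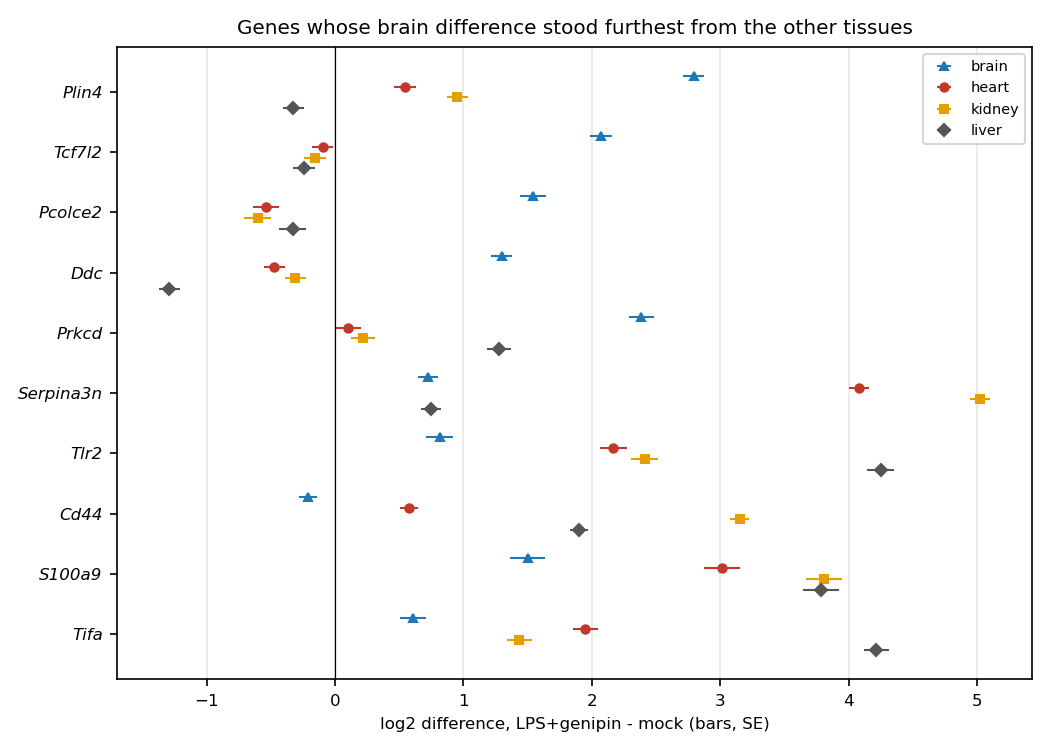
Log2 LPS+genipin minus mock difference (points, with SE bars, 3 arrays per group) of 10 genes in brain, heart, kidney and liver. They are the 5 with brain highest above and the 5 with brain lowest below the other tissues, muscle list left out. Plin4 reaches 2.79 in brain and 0.95 or less elsewhere, and S100a9 reaches 1.50 in brain and 3.01 to 3.81 elsewhere. Tlr2 in brain and Cd44 in kidney are lower bounds (mock at the floor), as is Serpina3n in liver (LPS+genipin saturated).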

How the data were processed

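Brain RNA was labelled with Cy5 from 5 µg and hybridised to one-colour arrays, 3 each for mock, LPS and LPS+genipin, per the labels' protocols. The values are intensities on the linear scale as normalized and deposited by the authors in the series' value table, and they ran from 15.2 to 65490.8 in brain. The submitters' processing notes name limma but neither its version nor its step, and how background was corrected or probes were filtered is not stated. The sources used here name no batch, slide or scan.

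The brain arrays lacked values for 3680 of 18183 probes. Through the platform annotation 14817 probes carried 1 gene symbol, none several and 3366 none, and 2318 symbols were updated through a RefSeq gene table (GRCm38.p6). Intensities under the 5th percentile of all values (263) were raised to it, log2 was taken, and among a gene's measured brain probes the one with the highest mean over arrays was kept. The lists' medians hold genes at the floor or at saturation at their bound. Group means of the 9 brain arrays were fitted in limma 3.58.1 (R 4.3.3, lmFit and eBayes), with two-sided p-values adjusted by Benjamini-Hochberg over all 10224 genes and a threshold of 0.05. Brain was set against heart, kidney and liver in a fit over all 36 arrays, with a contrast of the brain difference minus the mean of the other 3 differences over 6861 genes. Tables were handled in pandas 2.3.3 and numpy 2.4.6 under Python 3.11.15, and plots were drawn with matplotlib 3.10.9. Data were simulated with each gene's pooled spread over the brain groups (10224 genes, 200 changed). There the fit recovered 97.0% of 2-fold and 64.0% of 1.4-fold changes, with 6 false among 167 calls. The simulated spread of a gene was the same in all groups. On the arrays its median SD was 0.0586 in mock, 0.140 in LPS and 0.0965 in LPS+genipin. The simulation therefore does not show how the fit behaves where spreads differ or more genes change.

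The groups, gene lists and tests were chosen with earlier results of these data known. Genes were named by this rule: the 15 higher and 15 lower called genes with the largest difference outside the muscle list whose groups do not overlap, the 10 muscle genes with the largest difference, up to 4 members of each list with the largest difference and others where a count is broken down, the 10 largest and 10 smallest LPS+genipin minus LPS differences among genes at least 2-fold from mock, and the 5 higher and 5 lower that differed most from the other tissues. The rankings by difference from LPS and from the other tissues also left out the muscle list. Not all genes that fit the rule are printed. Alternatives were no floor, a floor at the 10th percentile, centring of arrays, the mean of a gene's probes, filters on low genes, the muscle list left out, the 6 arrays alone, a trended robust prior, the title numbers as a replicate block, and each array left out. Deviations from the group means of same-numbered mock and LPS+genipin arrays correlated at -0.03, 0.29 and -0.15, so the numbers were not taken to pair samples in that comparison. Same-numbered LPS and LPS+genipin arrays correlated at 0.14, 0.19 and 0.18, so for LPS+genipin against LPS the block was also read gene by gene.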

Additional observations from a re-analysis of the deposited data

Results flagged for a closer look

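The brain difference between LPS+genipin and mock departed from the mean of the same difference in heart, kidney and liver for 2433 genes, by a limma test of that contrast. The genes below are those with the largest departures among genes called in brain, with the skeletal muscle list left out. Plin4 exceeded the mean of the other tissues by 2.40 on the log2 scale, Tcf7l2 by 2.24, Pcolce2 by 2.03, Ddc by 1.99 and Prkcd by 1.85. In the opposite direction, brain minus the mean of the others was -2.56 for Serpina3n, -2.13 for Tlr2, -2.09 for Cd44, -2.04 for S100a9 and -1.93 for Tifa. Serpina3n was saturated in liver in LPS+genipin, Tlr2 was at the floor in mock brain and Cd44 at the floor in mock kidney, so these 3 values depend on a limit of the scale. The Tlr2 brain difference is a lower bound, and its departure may be smaller than printed. The brain call of Cd44 itself was lost in 15 alternatives.

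Probes without a gene symbol, which enter no comparison above, also gave calls. Of 2432 measured in brain, 365 passed in LPS+genipin against mock, 195 higher and 170 lower, and 24 differed at least 2-fold.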

How the results depend on the processing

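No named gene reversed under any alternative. Of 204 named genes 164 were called, 138 of these kept the call under every alternative and 26 lost it in at least 1, and 16 of the 40 not called passed in at least 1. Leaving out genes whose mean was under the 25th percentile, which tests fewer genes, gave 934 calls against 1474, 568 higher, 366 lower and 84 at least 2-fold. Of the called members of the antiviral, LPS recognition, NF-kB and choroid plexus lists, it left 7 of 9, 4 of 6, 4 of 5 and 4 of 6 untested. Under the other alternatives that keep all arrays of mock and LPS+genipin and the muscle list, no list's count of higher or lower genes that moved by over 1.5 times moved by more than 2 genes. With the 6 arrays alone, 2254 genes were called and 953 were lower, and the cause was not tested. Over all alternatives that leave out 1 array, calls ran from 852 to 1818, higher calls from 575 to 1096, lower calls from 277 to 733, and those at least 2-fold from 127 to 138. In the same alternatives LPS+genipin against LPS ran from 2139 to 3249, LPS against mock from 2261 to 3715, called members of the pathway lists from 91 to 128 (121 in all arrays) and brain against the other tissues from 2065 to 2514. With the title numbers as a replicate block 1449 genes were called, 1264 of them among the 1474, and not every mock and LPS+genipin array correlated best with its own number. The labels do not say that same-numbered arrays are paired. In LPS+genipin against LPS, where the deviations of same-numbered arrays correlated positively, the block gave 3129 calls against 3085, 2850 of them shared. It changed the call of 6 of the 204 named genes there, none of them printed with that difference. No floor, another floor, centring, averaged probes, the trended prior, the filter on floor genes and the muscle list left out gave 1387 to 1609 calls. Centring moved the share of higher calls by under 10 percentage points and the median of all genes by under 0.1.

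Depth is not defined for arrays. Genes at the floor (301 in mock, 260 in LPS+genipin) and saturated genes (94 in each) have bounds or no fold, and 3 arrays per group limit the precision.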
